A study of Rattus norvegicus with 6 samples.

Results

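The genes described here are 9 genes of the sphingosine 1-phosphate (S1P) pathway, namely the ceramidases Acer2, Acer3 and Asah1, the sphingosine kinases Sphk1 and Sphk2, the S1P lyase Sgpl1, the S1P phosphatase Sgpp1 and the S1P receptors S1pr1 and S1pr4. Every probe set to which the array annotation gives 1 of these symbols was taken, which gave 14 probe sets of 7 genes among 31042 probe sets. The annotation used here gives no probe set to Sgpp1 or S1pr4, which were not analysed here. The group was proposed from the comparison reported below, in which Acer2 and S1pr1 were called, so the differences between rats with middle cerebral artery occlusion (MCAO) and sham rats are given as a description, with no p-value for any of its genes.

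Whole-blood RNA was hybridized to 6 GeneChip rat genome arrays, 1 per rat. There were 3 MCAO rats and 3 sham rats. All were male Sprague-Dawley rats aged 8 weeks. In the MCAO group a coated thread closed the origin of the left middle cerebral artery before it was withdrawn, and the 3 rats had been selected by the authors for infarcts of similar size. The sham rats had the same operation with an uncoated thread. Blood was drawn from the heart 24 h after reperfusion in both groups. Precision is limited by there being 3 arrays a group.

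S1P is a lipid messenger that is abundant in blood and scarce in most tissues. Ceramidases cut ceramide into sphingosine and a fatty acid, and sphingosine kinases phosphorylate sphingosine to S1P. S1P is either dephosphorylated again by phosphatases or cleaved irreversibly by the lyase. S1pr1 on lymphocytes senses the S1P gradient and lets the cells leave lymphoid organs for the blood, while erythrocytes and platelets store and release S1P.

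The sequences before the annotated starts of Acer2 and S1pr1 are shown because these were the 2 genes called in opposite directions. They come from RefSeq (build GRCr8), in which 8 of the 9 genes had an entry, and only bases in front of the annotated gene are printed. Capitals mark the GC box, GGGCGG, and the CACCC motif, each on either strand (CCGCCC and GGGTG). The CACCC core is recognized by Krüppel-like factors. No match of one motif overlapped one of the other.
Acer2, chr5:106437598-106437772, + strand: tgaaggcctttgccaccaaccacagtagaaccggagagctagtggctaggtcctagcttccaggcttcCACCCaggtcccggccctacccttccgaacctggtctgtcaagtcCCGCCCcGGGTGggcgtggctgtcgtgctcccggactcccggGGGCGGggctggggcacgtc
S1pr1, chr2:206314071-206314320, - strand: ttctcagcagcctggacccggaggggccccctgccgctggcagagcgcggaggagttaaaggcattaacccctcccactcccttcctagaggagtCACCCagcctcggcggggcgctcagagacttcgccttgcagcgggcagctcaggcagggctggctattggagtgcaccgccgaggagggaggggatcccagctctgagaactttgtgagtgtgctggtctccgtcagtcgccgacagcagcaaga
Acer2 held 2 GC boxes and 2 CACCC motifs in its 175 bases, and 67.4% of these bases were G or C. In windows of the same length at the beginning of each of 33469 promoter entries, 20.1% held a GC box and 37.5% a CACCC motif. These windows were not aligned to the annotated start of each gene. S1pr1 held 1 CACCC motif and no GC box in its 250 bases, with 64.8% G or C, where 49.2% and 30.5% of all promoters held them. These are matches of letters and not sites of binding.

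The authors normalized the arrays with DFW, a method that contracts differences between arrays, and the values are log2 expression on that scale. Over the 6 arrays, a probe set had a median range of 6.55e-06 log2 units. Differences are therefore small in absolute terms and are not fold changes of the raw signal. For this reason each is also given in units of the SD within groups. A gene with several probe sets has them numbered from the brightest, as the first, the second and the third, with the array's names for them in the plots. Levels of different probe sets depend on their probes and were not set against each other, except to number them and to place the third Acer2 probe set. A probe set was called by Rank Products, which ranks 9 differences, 1 for each MCAO rat minus each sham rat, at a false discovery rate (FDR) below 0.05 over all probe sets. The arrays had medians from 5.564334 in MCAO rat 1 to 5.564387 in MCAO rat 3, and from 5.564387 to 5.564404 in the sham rats.

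Acer2, the alkaline ceramidase of the Golgi apparatus, was higher in the MCAO group at all 3 of its probe sets. In the deposited values the groups did not overlap. At the first Acer2 probe set the log2 values were 5.855405, 5.855576 and 5.855634 in MCAO rats 1 to 3, against 5.854873, 5.854696 and 5.855137 in sham rats 1 to 3. The lowest MCAO rat lay above the highest sham rat, which was sham rat 3. The difference was 0.000637 (SE 0.000137), or 3.58 within-group SDs. At the second Acer2 probe set the values were 5.828155, 5.828252 and 5.828433 in the MCAO rats, against 5.827862, 5.827617 and 5.828046 in the sham rats. The 6 rats stood in the same order at both probe sets, with MCAO rat 3 at the top and sham rat 2 at the bottom. The difference at the second Acer2 probe set was 0.000438 (SE 0.000140), or 2.40 SDs.

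The third Acer2 probe set had values of 5.070124, 5.070130 and 5.070151 in the MCAO rats and of 5.070109, 5.070121 and 5.070096 in the sham rats. The MCAO rats kept the order seen at the other probe sets, whereas among the sham rats the order was different and rat 3 was the lowest. The difference was 2.63e-05 (SE 1.03e-05), or 1.96 SDs, and this probe set was not called. Over the 6 rats its Pearson r with the first Acer2 probe set was 0.624, while that between the first and second was 0.976. After quantile normalization the differences at the 3 probe sets were 0.000590, 0.000356 and 9.65e-06, and the groups were apart only at the first. With arrays centred on the median the groups were apart at all 3. The 3 probe sets read the RNA of one gene on the same arrays and are no replicates of each other.

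Of the other ceramidases, Acer3 did not share this pattern, whereas Asah1 had the groups apart at its second probe set only. Acer3, another alkaline ceramidase, had 3 probe sets at which the groups overlapped. At the first Acer3 probe set the MCAO rats lay between 5.885268 and 5.885282 and the sham rats between 5.885273 and 5.885290, and the difference was -5.06e-06 (SE 6.50e-06). At the second the MCAO rats lay between 5.558006 and 5.558019 and the sham rats between 5.558005 and 5.558014, and at the third between 5.406303 and 5.406322 and between 5.406288 and 5.406319. The differences there were 7.68e-07 (SE 4.51e-06) and 7.37e-06 (SE 1.00e-05). In within-group SDs the 3 differences were -0.598, 0.131 and 0.565, so that each lay within the spread of the rats. Asah1, the acid ceramidase of lysosomes, had values of 5.555948, 5.555941 and 5.555994 in the MCAO rats at the second Asah1 probe set, against 5.555928, 5.555941 and 5.555886 in the sham rats. MCAO rat 2 and sham rat 2 were equal to the sixth decimal there, and beyond it every MCAO rat lay above every sham rat. The difference was 4.28e-05 (SE 2.21e-05), or 1.49 SDs. The first Asah1 probe set had 5.745728, 5.745780 and 5.745852 in the MCAO rats, against 5.745749, 5.745797 and 5.745738 in the sham rats. There MCAO rat 3 was the highest and MCAO rat 1 the lowest of the 6 rats, and the difference was 2.52e-05 (SE 3.79e-05).

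**Figure D1:**
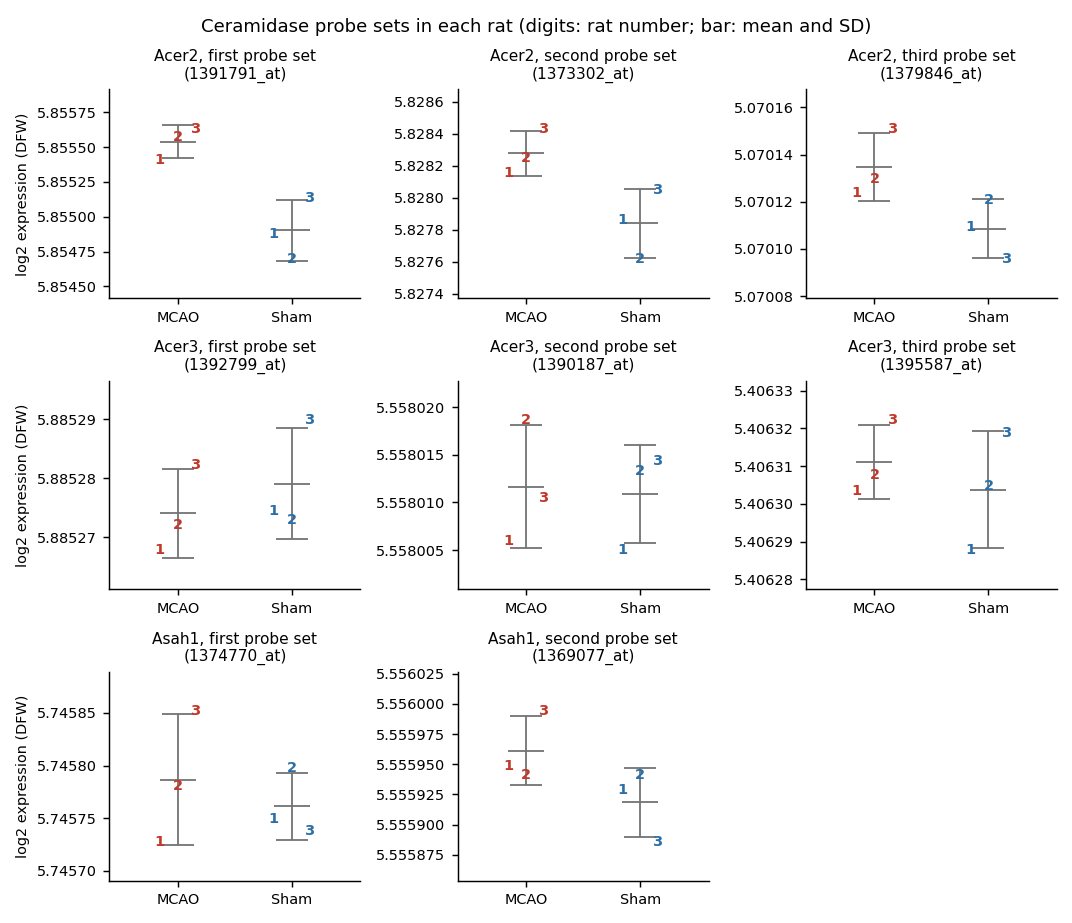
Expression on the y axis (log2, DFW scale) of the 8 ceramidase probe sets in MCAO and sham rats, where digits mark the rat and bars show the mean and SD (n = 3 each). Each panel has its own y axis, which does not begin at 0. At the 3 Acer2 probe sets and, narrowly, at the second Asah1 probe set all MCAO rats lie above all sham rats. The groups overlap at the 3 Acer3 probe sets and at the first Asah1 probe set.

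The kinases that turn sphingosine into S1P gave no common direction. Sphk2, the kinase found largely in the nucleus and at internal membranes, was lower in the MCAO group at its first probe set, with 5.629808, 5.629827 and 5.629844 in MCAO rats 1 to 3, against 5.629865, 5.629885 and 5.629893 in sham rats 1 to 3. All MCAO rats lay below all sham rats. The difference was -5.50e-05 (SE 1.24e-05), or -3.40 SDs, the widest gap in SDs after that of the first Acer2 probe set, and it was not called. After quantile normalization it was -3.26e-05 (SE 2.86e-05), and with arrays centred on the median -2.52e-05 (SE 1.23e-05). The second Sphk2 probe set went the other way. There the MCAO rats lay between 5.463750 and 5.463754 and the sham rats between 5.463748 and 5.463750, without overlap beyond the sixth decimal, and the difference was 3.43e-06 (SE 1.37e-06). Its range over the arrays, 6.79e-06, was close to the median of all probe sets. Sphk1, the cytosolic kinase, had 5.937871, 5.937858 and 5.937865 in the MCAO rats, against 5.937861, 5.937867 and 5.937858 in the sham rats. The groups overlapped, and the difference was 2.71e-06 (SE 4.47e-06).

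Sgpl1, the lyase that ends S1P signaling, had 5.433465, 5.433462 and 5.433464 in the MCAO rats, against 5.433461, 5.433458 and 5.433461 in the sham rats. The groups did not overlap, and the difference was 3.39e-06 (SE 1.31e-06), or 2.03 SDs. The range over the arrays was 6.61e-06, which, like that of the second Sphk2 probe set, was close to the median of all probe sets.

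S1pr1, the receptor, was called lower in the MCAO group at 1 probe set and not at the other. At the first S1pr1 probe set the values were 6.690840, 6.699219 and 6.698999 in MCAO rats 1 to 3, against 6.697567, 6.702003 and 6.700911 in sham rats 1 to 3. MCAO rat 1 stood apart at the bottom, and MCAO rats 2 and 3 lay between sham rat 1 and the other sham rats. The MCAO rats averaged 6.696 ± 0.0048 and the sham rats 6.700 ± 0.0023 (SD, n = 3 each), and the difference was -0.00381 (SE 0.00288), or -1.02 SDs. Without MCAO rat 1 it was -0.00105 (SE 0.00159) and the call was lost. The second S1pr1 probe set had 5.483029, 5.483030 and 5.483028 in the MCAO rats, against 5.483027, 5.483028 and 5.483022 in the sham rats. Here the MCAO rats were higher, with no overlap beyond the sixth decimal and a difference of 3.47e-06 (SE 1.79e-06). The probe sets of S1pr1 thus disagree in sign, and their range over the arrays was 0.0112 at the first S1pr1 probe set and 8.05e-06 at the second S1pr1 probe set.

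**Figure D2:**
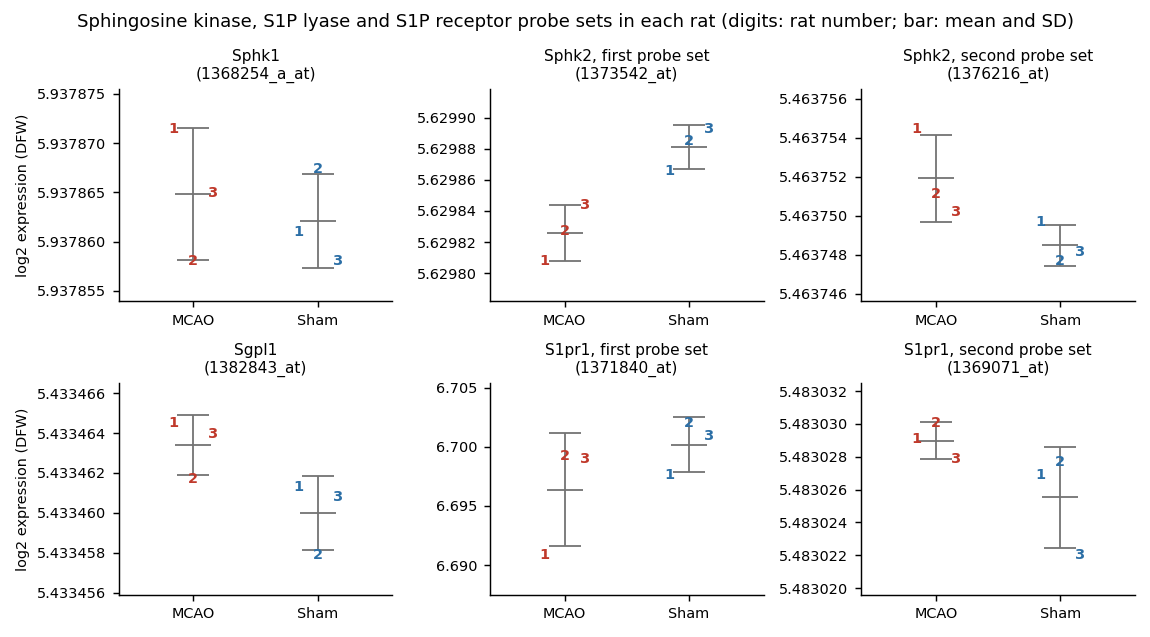
Expression on the y axis (log2, DFW scale) of the probe sets of Sphk1, Sphk2, Sgpl1 and S1pr1 in MCAO and sham rats, where digits mark the rat and bars show the mean and SD (n = 3 each). Each panel has its own y axis, which does not begin at 0. Both Sphk2 probe sets separate the groups in opposite directions, and MCAO rat 1 lies far below the other rats at the first S1pr1 probe set.

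Of the 14 probe sets, 2 were called higher in the MCAO group (the first and second of Acer2), 1 was called lower (the first of S1pr1) and 11 were not called. Of all probe sets, 0.135% were called higher and 0.561% lower. The groups were fully apart at 7 of the 14 probe sets with the MCAO rats higher and at 1 with the MCAO rats lower, against 4.82% and 3.6% of all probe sets. The mean was higher in the MCAO group at 11 of the 14 and lower at 3, where it was higher at 53.4% of all probe sets, with a median of 1.03 within-group SDs, against 0.0757 over all probe sets. The genes were chosen on this contrast, so nothing is read from these shares. After quantile normalization the groups were apart at 2 of the 14, the first Acer2 probe set and the second Asah1 probe set, both higher.

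The 3 called probe sets were those with the widest ranges among the 14. The first S1pr1 probe set ranked 144th of all probe sets by range, the first Acer2 probe set 1138th and the second Acer2 probe set 1221st. The third Acer2 probe set ranked 4430th. The first Sphk2 probe set, at -3.40 SDs, ranked 3579th, while the first S1pr1 probe set was called at -1.02 SDs. By limma, which weighs a difference against its own spread, none of the probe sets of the arrays was called (adjusted over all probe sets). An unadjusted p under 0.05 was found at 1150 of 31042 probe sets, a smaller share than 0.05. The calls of Acer2 were lost without MCAO rat 1, 2 or 3, and that of S1pr1 without MCAO rat 1 or any of the sham rats, although the differences of both kept their direction.

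**Figure D3:**
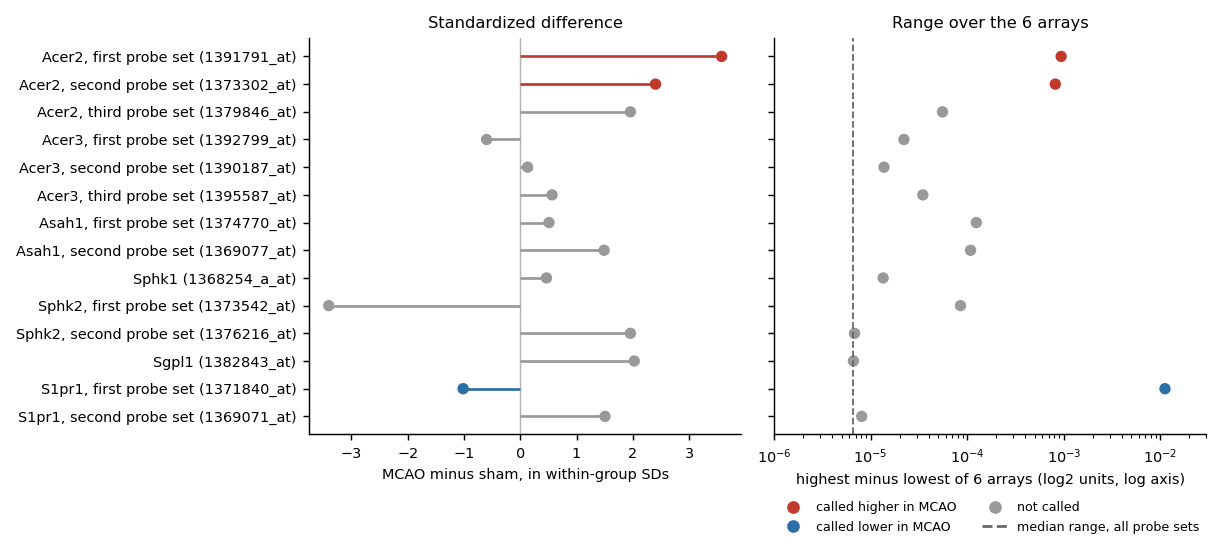
Left, difference of MCAO minus sham in within-group SDs (x axis) for each of the 14 probe sets. Right, range over the 6 arrays in log2 units on a log axis, with the median range of all probe sets, 6.55e-06, as a dashed line. The first Acer2 probe set lies at 3.58 SDs and the first Sphk2 probe set at -3.40 SDs, whereas the first S1pr1 probe set has the widest range, 0.0112, and lies at -1.02 SDs.

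Klf2 and Cd69, which act on S1pr1, were lowest in MCAO rat 1. In all, 10 of the 16 measured G proteins and partners of the receptors were lowest in that rat, against 23.2% of all genes. This was not particular to S1pr1 and its partners. The array of MCAO rat 1 had the lowest median, 5.564334. That rat also had the lowest mean level of the neutrophil markers, 6.43040, and of the monocyte markers, 6.45962, but not of the platelet, erythroid or endothelial markers. Klf2, a transcription factor that switches on S1pr1 in mouse T cells, is given at the brightest of its 5 probe sets. It had 7.504670, 7.524699 and 7.530546 in MCAO rats 1 to 3, against 7.521486, 7.532357 and 7.528759 in sham rats 1 to 3. It was called lower (difference -0.00756, SE 0.00796, Rank Products FDR 0.0459), and MCAO rat 1 was the lowest of the 6 rats, while MCAO rat 3 lay above 2 of the sham rats. Without MCAO rat 1 the difference of Klf2 turned to 8.86e-05, with means of 7.527622 in MCAO rats 2 and 3 and 7.527534 in the sham rats. Without MCAO rat 1 or any of the sham rats, Klf2 was not called. Cd69, an activation marker that binds S1pr1 and removes it from the cell surface, had 6.516744, 6.518348 and 6.517793 in the MCAO rats, against 6.517924, 6.519201 and 6.518828 in the sham rats. The difference was -0.00102 (SE 0.000568) and it was not called, although it was called lower over same-numbered pairs and without MCAO rat 2. MCAO rat 1 was again the lowest.

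S1pr1 is carried by lymphocytes, and in whole blood fewer lymphocytes and less RNA per lymphocyte cannot be told apart. The mean log2 level of the T cell markers, 14 of 16 measured, lay between 6.29721 and 6.29825 in the MCAO rats and between 6.29802 and 6.29877 in the sham rats, with the lowest in MCAO rat 1. The MCAO rats averaged lower at 12 of the 14, where 50.2% of all genes did, and 1 was called lower, Cd3g, with none higher, where 0.851% of all genes were called lower. The median difference of these markers was -1.47e-05 and shrank to -1.41e-06 without MCAO rat 1. It turned to 1.51e-05 with arrays centred on the median, but was -5.69e-05 after quantile normalization. The mean of 9 B cell markers lay between 6.25561 and 6.25701 in the MCAO rats and between 6.25712 and 6.25830 in the sham rats, again with the lowest in MCAO rat 1. All 9 had the lower mean in the MCAO group, and 3 of them were called lower (Ms4a1, Fcmr and Cr2). The groups were apart, with MCAO lower, at 7 of the 9, against 1 of the 14 T cell markers and 4.11% of all genes. With each B cell marker standardized over the 6 rats, the mean of the list lay between -1.34 and -0.180 in the MCAO rats. In the sham rats this mean lay between 0.328 and 1.08. The mean of 9 NK cell markers lay between 5.83581 and 5.83799 in the MCAO rats and between 5.83700 and 5.83837 in the sham rats, with the lower mean in the MCAO group at all 9 and 1 called lower, Prf1. At none of the NK cell markers were the groups apart. Without MCAO rat 1 the median difference was -5.69e-05 at the B cell markers and -7.49e-06 at the NK cell markers, against -6.97e-05 and -8.33e-05 with all rats. After quantile normalization it was -0.000259 at the B cell and -0.000114 at the NK cell markers. With arrays centred on the median these were -3.99e-05 and -5.35e-05. Array values have no true 0, so no marker can be said to be missing. The part of these cells in the difference of S1pr1 was not tested.

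**Figure D4:**
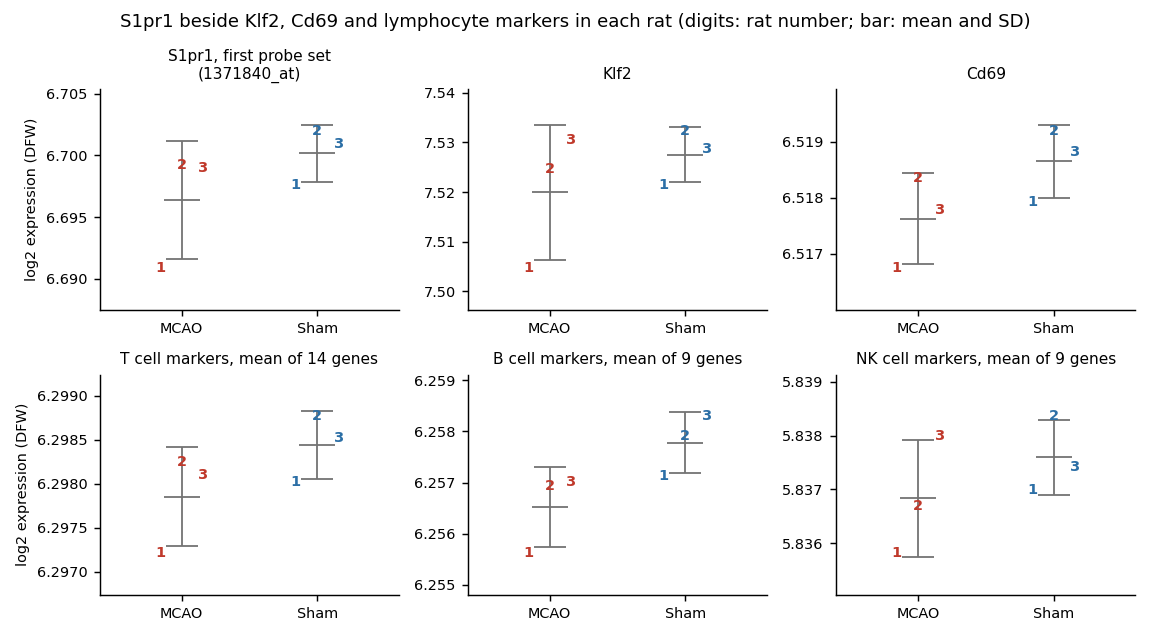
Expression on the y axis (log2, DFW scale) of S1pr1, Klf2 and Cd69 and the mean level of T, B and NK cell markers in MCAO and sham rats, where digits mark the rat and bars show the mean and SD (n = 3 each). Each panel has its own y axis, which does not begin at 0. MCAO rat 1 is the lowest of the 6 rats in every panel.

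Markers of the cells that store or release S1P, and of other blood cells, were measured beside Acer2. The mean of 9 platelet markers lay between 8.41510 and 8.41585 in the MCAO rats and between 8.41503 and 8.41548 in the sham rats, and none was called. The mean of 12 erythroid markers lay between 9.80549 and 9.80926 in the MCAO rats and between 9.80600 and 9.80899 in the sham rats, where Hba-a3 was called higher and Tfrc lower. The mean of 9 neutrophil markers lay between 6.43040 and 6.46557 in the MCAO rats and between 6.44149 and 6.44635 in the sham rats. Among these Csf3r was called higher and S100a9 and Lrg1 were called lower, although the means of S100a9 and Lrg1 were higher in the MCAO group. In these 3 lists the groups overlapped. None of 8 monocyte markers was called (6.45962 to 6.46916 in the MCAO rats and 6.46258 to 6.46710 in the sham rats), and none of 7 endothelial markers (5.926465 to 5.926468 in the MCAO rats and 5.926459 to 5.926466 in the sham rats). Of the endothelial markers, Tek and Emcn had every MCAO rat above every sham rat. With each endothelial marker standardized over the 6 rats, the mean of the list lay between 0.279 and 0.619 in the MCAO rats. In the sham rats it lay between -0.867 and -0.215, so that on this scale the groups were apart. The median difference of the endothelial markers was small, 4.37e-06. It was 0 after quantile normalization and 3.41e-05 with arrays centred on the median. The MCAO rats averaged higher at 8 of the 9 platelet, 1 of the 12 erythroid, 7 of the 9 neutrophil, 5 of the 8 monocyte and 6 of the 7 endothelial markers. Without MCAO rat 3 the median difference turned from 8.97e-05 to -8.21e-05 at the platelet, from 5.65e-05 to -2.70e-05 at the neutrophil and from 8.68e-06 to -1.38e-05 at the monocyte markers, whose median also turned without sham rat 1 or sham rat 3. Their part in the difference of Acer2 was not tested.

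Among the other genes of sphingolipid metabolism and S1P signaling, few were called, and each of these was lower in the MCAO group. The list held 79 genes, of which 67 had a probe set, and each was represented by its brightest probe set. Of the 67, 5 were called lower and none higher, where 0.851% of all 14217 genes were called lower and 0.141% higher. Of the 5, Gna12, Rhoh and Akt2 are the molecules that the study itself assigned to this pathway on these rats, so they are not independent evidence. Without any 1 of the sham rats, none of the 5 was called. Gna12 was also not called without MCAO rat 2, without MCAO rat 3 and over same-numbered pairs. The groups were apart at 2 of the 67 genes with the MCAO rats higher, Cers4 and Smpd4, and at 4 with the MCAO rats lower, Gnb1 and these 3 molecules, against 4.43% and 4.11% of all genes. Among the 64 genes other than these 3 molecules, Gltp and Klf2 were called. Gltp, which moves glycolipids between membranes, had 8.388158, 8.387712 and 8.389510 in the MCAO rats, against 8.389283, 8.390005 and 8.390528 in the sham rats. MCAO rat 3 lay within the sham rats. The difference was -0.00148 (SE 0.000612, Rank Products FDR 0.0468), and the call was lost without MCAO rat 2 as well.

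No gene of the ceramide-synthesizing enzymes was called among 11 measured. Cers6, a ceramide synthase, had the largest difference, -0.000150 (SE 0.000266), followed by Ormdl2, a regulator of the first step, with -4.12e-05 (SE 2.76e-05). Of 21 genes of sphingomyelin and glycosphingolipid turnover Gltp alone was called. Smpdl3a, a relative of acid sphingomyelinase, differed by 0.000495 (SE 0.00236). Of 3 other ceramidase genes none was called, with Asah2, the neutral ceramidase, at 9.08e-06 (SE 6.91e-06) and Naaa, an acid amidase, at -7.63e-06 (SE 3.84e-05). Each of these differences was below 2 times its SE.

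Of 13 genes for other S1P phosphatases, receptors and carriers, none was called and at none were the groups apart. Aldh3a2, which oxidizes the aldehyde left by the lyase, differed by -4.18e-05 (SE 7.09e-05) and Abca7, a lipid transporter, by -1.10e-05 (SE 1.32e-05). Of 16 G proteins and partners of the receptors, Klf2 alone was called, but Rac2 and Cd69 were called lower over same-numbered pairs. Rac2, a GTPase of leukocyte migration, differed by -0.00441 (SE 0.00466), with MCAO rat 1 the lowest at 7.841449, and by -0.000151 without that rat. The median difference was 0.357, 0.0696, 0.822 and 0.370 within-group SDs in the lists of synthesis, turnover, other ceramidases and other S1P genes and -0.438 in the G protein list, against -0.0037 over all genes.

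**Figure D5:**
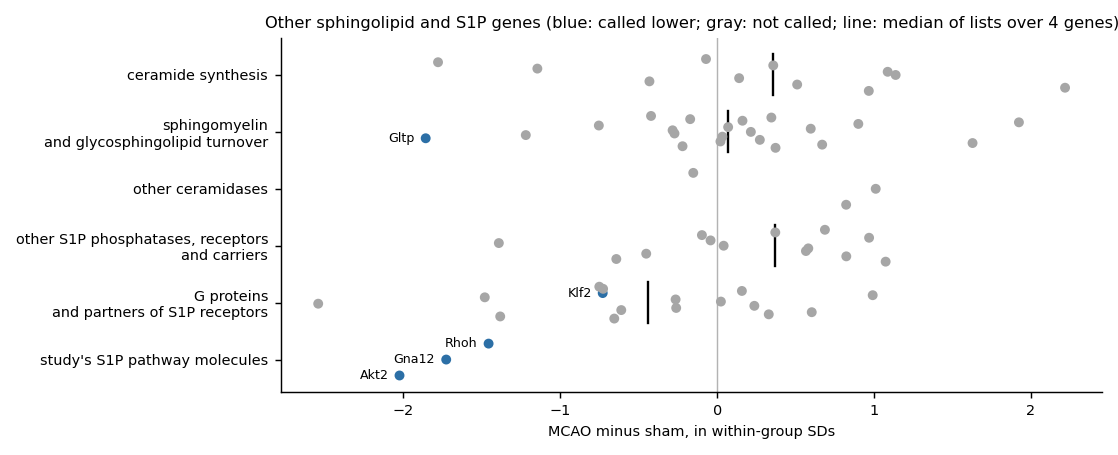
Difference of MCAO minus sham in within-group SDs (x axis) for 67 other sphingolipid and S1P genes, 1 point per gene, grouped by role. Blue points with a name were called lower, gray points were not called, and black lines mark the median of lists with more than 4 genes. Gltp, Klf2, Gna12, Rhoh and Akt2 are the 5 called genes.

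The 3 molecules that the study placed in the pathway together with Acer2 and S1pr1 were lower at their brightest probe sets, with no overlap between the groups. Gna12 has 2 probe sets and Akt2 has 4, and the others are not described here. Gna12, a G protein alpha subunit, lay between 8.781969 and 8.782678 in the MCAO rats and between 8.782728 and 8.783867 in the sham rats (difference -0.000884, SE 0.000393). Rhoh, a GTPase of blood cells, lay between 5.752830 and 5.755056 in the MCAO rats and between 5.755078 and 5.755767 in the sham rats (difference -0.00130, SE 0.000686). Akt2, a kinase below many receptors, lay between 7.269063 and 7.270656 in the MCAO rats and between 7.270747 and 7.271470 in the sham rats (difference -0.00139, SE 0.000528). The gaps between the groups were narrow beside the spread within them.

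The probe sets most like the first Acer2 probe set were of Spire1, Fut1, Asb2, Ak7 and Selp, the adhesion molecule P-selectin of platelets and endothelium, with Pearson r from 0.980 to 0.991. None of these was called, and their differences lay between 3.18e-07 and 4.61e-06. The second probe set of Acer2 had an r of 0.976, and 28 probe sets in all exceeded 0.95. The probe sets most like the first S1pr1 probe set were of Add3, Gimap4, a GTPase of lymphocytes, Erh, Eif5b and Tomm20, with r from 0.997 to 0.999, and 355 probe sets exceeded 0.95. MCAO rat 1 is far below the others at S1pr1, so that a probe set low in that rat gives a high r. The first Acer2 probe set and the first S1pr1 probe set had an r of -0.353. These values describe 6 arrays that were normalized together.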

How the data were processed

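Blood of 3 MCAO and 3 sham rats was measured on 1 array per rat. The deposited log2 values had been normalized over all arrays and summarised per probe set with DFW by the authors, without a stated filter. The log base is not given and was inferred from their range, 4.93 to 14.43. DFW contracts differences between arrays unequally, so that the median SD was 2.46e-06, and Rank Products favors probe sets that keep a wide range. Without 57 control probe sets, 31042 were tested, of which 20826 carry 1 gene symbol.

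Rank Products was coded for these data (Python 3.11.15, numpy 2.4.6, pandas 2.3.3; 2 unpaired classes, 100 permutations, FDR under 0.05). Differences, SEs and adjusted p came from limma 3.58.1 in R 4.3.3. A gene of a list was represented by its brightest probe set. Both methods were also run on simulated data with known changes, with an equal spread and with the spread of each probe set. The outcome is not given here, so no result rests on it. The p-values of limma measure the spread between these rats only. The FDR of Rank Products comes from shuffling the values of each array over its probe sets. It sets the ranks of a probe set against those of others and does not measure the spread between rats. The members and lists were chosen with earlier results of these data known. The text names all members, the called genes of the other lists with the 2 largest differences in each, and the 5 probe sets most like Acer2 and S1pr1, and Cd69, Cers4, Smpd4, Gnb1 and single markers were added after their values were seen. The alternatives were limma, blocks of same-numbered rats, an FDR under 0.01, the probe sets above the median level, quantile normalization, arrays centred on the median, inclusion of the control probe sets, other probe sets and leaving out each rat. The separation of the groups under quantile normalization and centring, 10 other draws of the permutations, and single genes without MCAO rat 1 were added after the data were seen.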

Additional observations from a re-analysis of the deposited data

How the results depend on the processing

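Acer2 kept its direction at its 3 probe sets under every alternative tried. At the third, a probe set near the bottom of the array, the difference ran from 9.65e-06 after quantile normalization to 5.61e-05 with arrays centred. The difference changed sign in 4 of 11, 2 of 9 and 1 of 9 alternatives at the Acer3 probe sets, in 2 of 9 at Sphk1 and in 1 of 10 at the first probe sets of Asah1, Sphk2 and S1pr1 each. For Sphk2 and S1pr1 that one was the other probe set. The 2 probe sets called higher became 1 at an FDR under 0.01 and 1 among probe sets above the median level, both times the first Acer2 probe set, and 0 after quantile normalization, by limma and by limma with the replicate block. Leaving out 1 rat gave 0 to 2 (0 without any of the MCAO rats). The 1 probe set called lower, the first S1pr1 probe set, became 0 under each of these settings, and leaving out 1 rat gave 0 to 1. The 5 other sphingolipid and S1P genes became 0 at an FDR under 0.01, among probe sets above the median level, by limma and by limma with the replicate block, and 1, Gltp, after quantile normalization. Leaving out 1 rat gave 0 to 6 (0 without any of the sham rats). At an unadjusted p under 0.05, limma had 3 of the 14 probe sets and 2 of the 67 genes, against 1150 of all 31042 probe sets. The 14 were chosen on this contrast, so nothing is read from their count. The difference of Acer2 was 0.000637 at the first Acer2 probe set, 0.000438 at the second Acer2 probe set and 2.63e-05 at the third Acer2 probe set, and that of S1pr1 turned from -0.00381 at the first S1pr1 probe set to 3.47e-06 at the second S1pr1 probe set. The cause was not tested. In all 10 other draws of the permutations the same 3 probe sets and 5 genes were called, while the calls over the arrays were 39 to 42 higher and 170 to 197 lower. With control probe sets kept and with arrays centred the counts were 2, 1 and 5.

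Centring raised MCAO rat 1, which had the lowest median, 5.564334. It lowered sham rats 2 and 3, which had the highest, 5.564401 and 5.564404. Every difference of MCAO minus sham thus rose by the same amount. With centring the groups were apart at 11 probe sets higher and 1 lower. After quantile normalization these were 2 and 0. Rat numbers are shared between the groups, but deviations of same-numbered rats had r of 0.211, 0.0400 and 0.0661, so they were not treated as pairs. Rats with different numbers had r from -0.232 to 0.166. The SEs depend on this choice. With the replicate block in limma, that of the first S1pr1 probe set was 0.00132 and that of the first Sphk2 probe set 2.64e-06. The SE rose at the third Acer2 probe set, both Asah1 probe sets and Sphk1, and fell at the other members. Rank Products over the same-numbered pairs (the replicate block) called 2, 1 and 6, where the 6 genes lacked Gna12 and gained Rac2 and Cd69. Without MCAO rat 3 the 6 were Gltp, Klf2, Rhoh, Akt2, Rac2 and Rhoa. Without an estimate of background it cannot be said which probe sets lay above it.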
